A study of Homo sapiens with 6 samples.

Results

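Apolipoproteins are the protein component of lipoprotein particles, and 10 of their genes were followed here in Caco-2, a line from a human colon carcinoma that stands in for small-intestinal enterocytes in much laboratory work: APOA1, APOA2, APOA4, APOA5, APOB, APOC1, APOC2, APOC3, APOE and APOH. They were taken by name from the platform annotation as genes whose proteins are carried on high-density lipoprotein (HDL) or chylomicrons. All 10 were measured, each by a single feature that carries its symbol alone, among 33616 genes tested. The labels give 6 Affymetrix arrays in 2 groups of Caco-2 cells, 3 with the genotype NC and 3 that overexpressed apoM. How apoM was introduced, whether a group was a clone, and whether its arrays came from separate cultures are not given in the labels, so the p-values rest on a spread between arrays that may be purely technical.

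Enterocytes package dietary fat around the scaffold protein apoB into chylomicrons, and smaller apolipoproteins join the particle or exchange with HDL in plasma. There they hold the particle together, activate or inhibit lipases, and serve as ligands for uptake by receptors. Apolipoprotein M, the overexpressed protein, is itself carried on HDL, where it binds sphingosine-1-phosphate.

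APOM followed the labels, with log2 values of 5.38, 5.84 and 6.41 on the NC arrays (always given in the order of replicates 1, 2 and 3) and 15.49, 15.56 and 15.85 on the arrays labelled as overexpressing it. The epithelial and intestinal markers VIL1, CDX2, EPCAM and CDH1 had NC means of 13.13, 12.78, 17.40 and 15.14 on the log2 scale, against array medians of 4.48 to 4.53 over all features. Of the 17 enterocyte markers on the list, others were dim: MYO1A, CDX1 and LCT had NC means of 3.80, 3.81 and 4.37, below those medians, and CDHR2 and SLC5A1 of 4.93 and 5.09, a little above them. The liver makes many of the same apolipoproteins, and 13 hepatocyte markers averaged 4.16 to 4.32 on the NC arrays and 4.29 to 4.37 with apoM. Genes of liver type were not all dim, however. Of 28 secreted plasma proteins of liver type, 16 lay above the median level of genes tested, among them TTR and RBP4 with NC means of 14.80 and 13.93. On the first principal component of protein-coding genes, the NC arrays lay at -39.0, -24.6 and -3.08. Those of the other group lay at 27.4, 26.2 and 13.1. Replicate 3 of each group thus stood apart from its partners, on the side of the other group, and NC replicates 1 and 2 were also spread.

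Of the 10 apolipoprotein genes, 9 were higher on average with apoM, as were 62.9% of all genes, and APOC2 was lower. None passed a limma adjusted p of 0.05 over all genes tested, where 2.06% of genes did. At an unadjusted p under 0.05 there were 5 of the 10, against 19.1% of all genes. The widest differences were for APOC1, an inhibitor of lipid transfer between lipoproteins, at 2.96-fold, and for APOA2, a structural protein of HDL, at 2.23-fold. The median log2 change of the 10 genes was 0.41, beside 0.09 over all genes tested and 0.08 over protein-coding genes. The groups did not overlap in 6 of the 10, all with apoM higher, where 17.3% of all genes showed that. Among genes above the median level, where all 10 lie, the share was 23.4%. Without NC replicate 3 the median of the 10 was 0.56 and the groups were apart for 8, all higher with apoM, as were 28.5% of all genes. The 95% interval of the change lay above 0 for APOA2, APOA4, APOC1, APOC3 and APOH and included 0 for the other 5. The arrays read RNA of whole cultures, so a difference in level per cell and a difference in the share of cells that express a gene cannot be told apart.

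**Figure D1:**
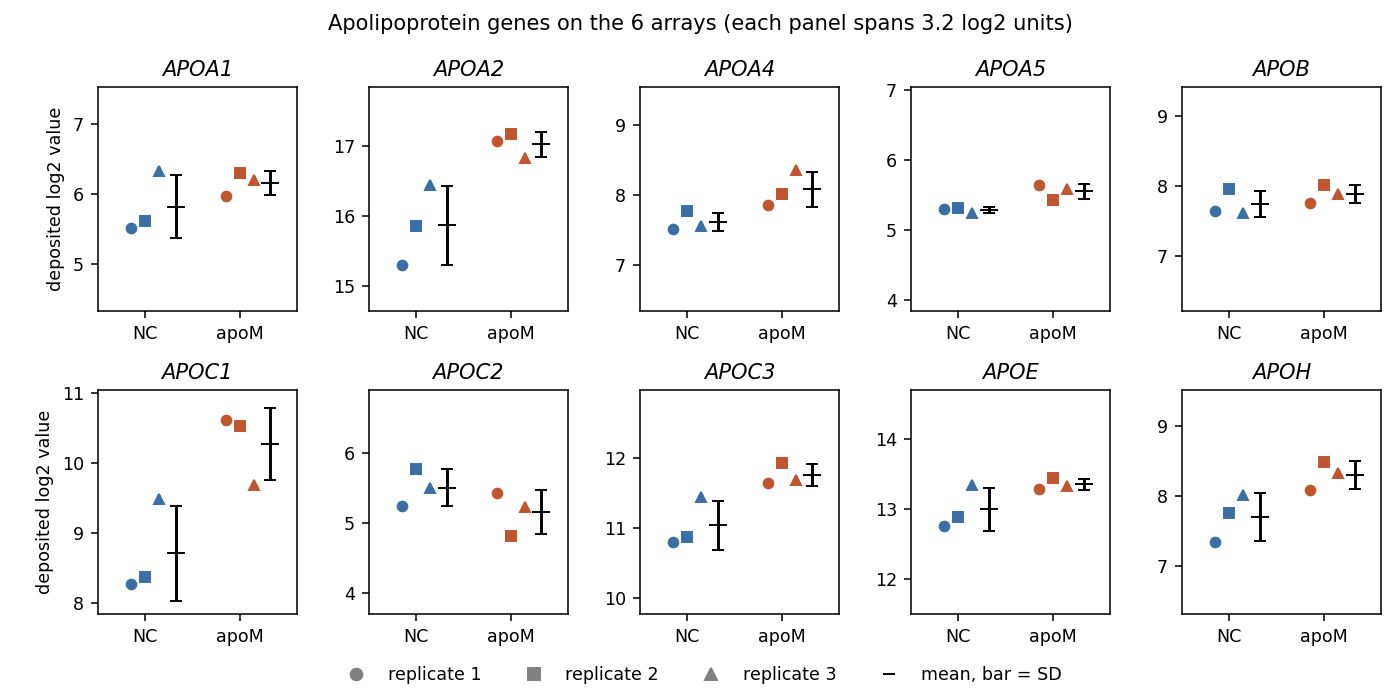
Deposited log2 value of each of the 10 apolipoprotein genes on the 6 arrays, with NC in blue, apoM overexpression in orange, replicate numbers as symbols, and the mean and SD of 3 arrays as bars. Every panel spans the same number of log2 units, so that distances compare between genes. The groups are apart for APOC1, APOA2, APOC3, APOA4, APOA5 and APOH, and NC replicate 3 is the highest NC array for 6 genes.

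The proteins that build HDL are apoA-I, which wraps the particle and activates the enzyme LCAT, and apoA-II. APOA2 read 15.31, 15.86 and 16.44 in the NC group and 17.08, 17.18 and 16.83 with apoM. All 3 apoM arrays lay above all NC arrays, and NC replicate 3 was the nearest of these, 0.39 below the lowest apoM array. The log2 change of APOA2 was 1.16 (SE 0.26) with a 95% interval from 0.58 to 1.74 (limma adjusted p = 0.0534). APOA1 read 5.52, 5.61 and 6.34 in NC and 5.97, 6.30 and 6.20 with apoM. Here NC replicate 3 was the highest of the 6 arrays, so the groups overlapped. Its change was 0.33 (95% interval from -0.17 to 0.84, limma adjusted p = 0.467), 0.59 without NC replicate 3 (limma adjusted p = 0.0865) and 0.18 without NC replicate 1. The APOA1 feature was at the 58.8 percentile of the genes tested by its mean value, and whether it stood above background was not analysed here.

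The chylomicron is built on APOB, and apoA-IV, encoded by APOA4, is an intestinal protein secreted with it. APOB read 7.64, 7.95 and 7.61 in NC and 7.758, 8.004 and 7.889 with apoM. The groups overlapped, and the change was 0.15 with an interval from -0.22 to 0.52 (limma adjusted p = 0.681), which leaves room for a rise of up to 1.43-fold or a fall to 0.86 of the NC level. With 1 array left out it ran from 0.09, without NC replicate 3 or without apoM overexpression replicate 2, to 0.26 without NC replicate 2. APOA4 read 7.52, 7.77 and 7.57 in NC and 7.87, 8.02 and 8.36 with apoM. The apoM arrays were all higher, the lowest of them by 0.10, and NC replicate 3 did not stand apart from the other NC arrays. The change of APOA4 was 0.46 (SE 0.18, limma adjusted p = 0.188), and 0.44 without NC replicate 3. Leaving out apoM overexpression replicate 3 gave 0.33 for APOA4, and leaving out apoM overexpression replicate 1 gave 0.57.

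Lipoprotein lipase, which breaks down the triglyceride of chylomicrons, needs apoC-II as its cofactor, is inhibited by apoC-III and is made more active by apoA-V. APOC2 read 5.24, 5.78 and 5.50 in NC and 5.43, 4.82 and 5.23 with apoM. It was the gene of the 10 that was lower with apoM, by a log2 change of -0.35, but the groups overlapped and the interval ran from -0.81 to 0.12 (limma adjusted p = 0.407). Leaving out replicate 2 of the apoM arrays gave -0.17 for APOC2, leaving out replicate 2 of NC gave -0.21, and leaving out replicate 1 of either group gave -0.48. A second APOC2 feature is shared with the readthrough transcript APOC4-APOC2 and was not used. APOC3 read 10.80, 10.87 and 11.44 in NC and 11.64, 11.93 and 11.68 with apoM. The apoM arrays were all higher, and NC replicate 3 lay 0.60 above the mean of the other NC arrays. Its change was 0.72 (SE 0.20, interval from 0.27 to 1.16, limma adjusted p = 0.0880).

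APOA5, which is mainly a liver gene, read 5.30, 5.32 and 5.24 in NC and 5.64, 5.43 and 5.58 with apoM. The NC arrays agreed within 0.08 and all lay below the apoM arrays, yet the change was small, at 0.27 with an interval from -0.06 to 0.60 (limma adjusted p = 0.366). The features of APOA5 and APOC2 were at the 51.5 and 50.2 percentiles of genes tested, so these differences are between dim signals.

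The remaining genes are APOC1, APOE and APOH. APOC1 read 8.27, 8.37 and 9.50 in the NC group and 10.61, 10.53 and 9.69 with apoM. The arrays of both groups were spread widely, with NC replicate 3 and apoM overexpression replicate 3 only 0.19 apart. The log2 change of 1.56 had a standard error of 0.34 and an interval from 0.79 to 2.33 (limma adjusted p = 0.0512), or from 1.73-fold to 5.04-fold. It was at the 99.9 percentile of the changes of protein-coding genes, and that of APOA2 at the 99.4 percentile. APOC1P1, a pseudogene copy of APOC1 on the same chromosome, was looked at after its values were seen. It read 5.26, 5.69 and 6.02 in NC and 6.43, 6.41 and 6.60 with apoM, a change of 0.83 (SE 0.20, limma adjusted p = 0.0634). Because the sequences are alike, signal of the gene and its copy may not be separable.

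APOE, a ligand of the LDL receptor family, read 12.75, 12.89 and 13.34 in NC and 13.28, 13.44 and 13.33 with apoM. The value of NC replicate 3 lay within the range of the apoM arrays, whose mean was higher than it by 0.01. The change of APOE was 0.36 (interval from -0.05 to 0.77, limma adjusted p = 0.328), and 0.53 without NC replicate 3 (limma adjusted p = 0.0978). It was 0.24 without NC replicate 1. APOH, a plasma protein that binds anionic phospholipids, read 7.33, 7.76 and 8.01 in NC and 8.09, 8.48 and 8.33 with apoM. The groups were 0.08 apart, and the change was 0.60 (SE 0.20, limma adjusted p = 0.145), or 0.75 without NC replicate 3 (limma adjusted p = 0.0648). Without NC replicate 1 the change of APOH was 0.41 (limma adjusted p = 0.395).

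Permuting the group labels exactly (two-sided) gave p = 0.1 for each of the 6 genes whose groups did not overlap, and this design allows no smaller p. For the other 4 genes it ran from 0.2 to 0.4.

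**Figure D2:**
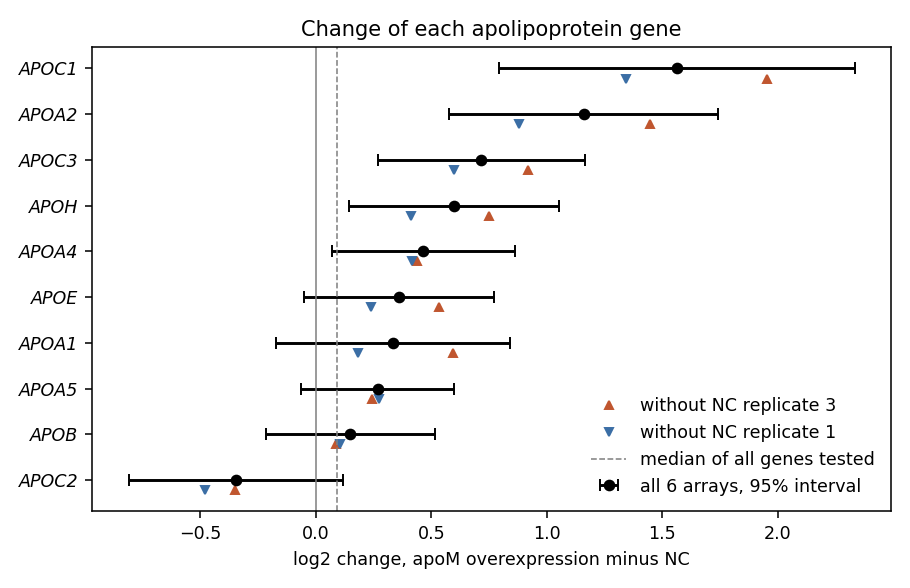
Log2 change of each apolipoprotein gene, apoM overexpression minus NC, with its 95% limma interval (black), and the change without NC replicate 3 (orange) or without NC replicate 1 (blue). The dashed line marks the median of all genes tested, at 0.09. Leaving out NC replicate 3 moved APOC1 to 1.95 and APOA2 to 1.44, while leaving out NC replicate 1 moved them to 1.34 and 0.88.

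The NC arrays differed among themselves. As deviations from each gene's own mean, the median over the 10 genes was -0.45, -0.26 and 0.01 for the NC arrays and 0.10, 0.29 and 0.20 for the apoM arrays. NC replicate 3 was the highest NC array for APOA1, APOA2, APOC1, APOC3, APOE and APOH, and not for APOA4, APOA5, APOB and APOC2. Over protein-coding genes the same medians ran from -0.08 to 0.02 in NC and from 0.02 to 0.05 with apoM. Without NC replicate 3, 3 of the 10 genes passed, APOC1 (limma adjusted p = 0.0067), APOA2 (limma adjusted p = 0.0079) and APOC3 (limma adjusted p = 0.0183), where 7.01% of all genes did. For these genes NC replicate 3 lay 1.17, 0.86 and 0.60 above the mean of the other NC arrays. Leaving it out therefore had to raise their changes, and that fit is no independent test of them. With any other single array left out, none of the 10 passed; that left 235 genes past the threshold or fewer.

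Of the 10 genes, 7 lie in clusters with other members, and their changes are set side by side here. On chromosome 11, APOA5, APOA4, APOC3 and APOA1 form a cluster, with changes of 0.27, 0.46, 0.72 and 0.33. On chromosome 19, the cluster holds APOE, APOC1, APOC4 and APOC2, with changes of 0.36, 1.56, -0.01 and -0.35. Among these protein-coding genes APOC1 thus lay between smaller changes, and its interval did not overlap those of APOE, APOC4 or APOC2. The pseudogene copy APOC1P1, on the same chromosome, was left out of this row and of the neighbours. Its change of 0.83 had an interval from 0.37 to 1.28, which overlapped that of APOC1. The differences between these genes themselves were not tested. The 3 nearest protein-coding genes on either side of each gene or cluster, with APOC4, came to 31 neighbours, of which 29 were measured. None passed on all 6 arrays or without NC replicate 3 (lowest limma adjusted p = 0.0686, for TOMM40), and their median change on all 6 arrays was 0.05. The smallest p-values among them belonged to TOMM40, a channel protein of mitochondrial import beside APOE, at 0.67 (limma adjusted p = 0.0598), CLPTM1 at 0.46, CACNG5 at -0.44 and ZPR1 at 0.33.

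**Figure D3:**
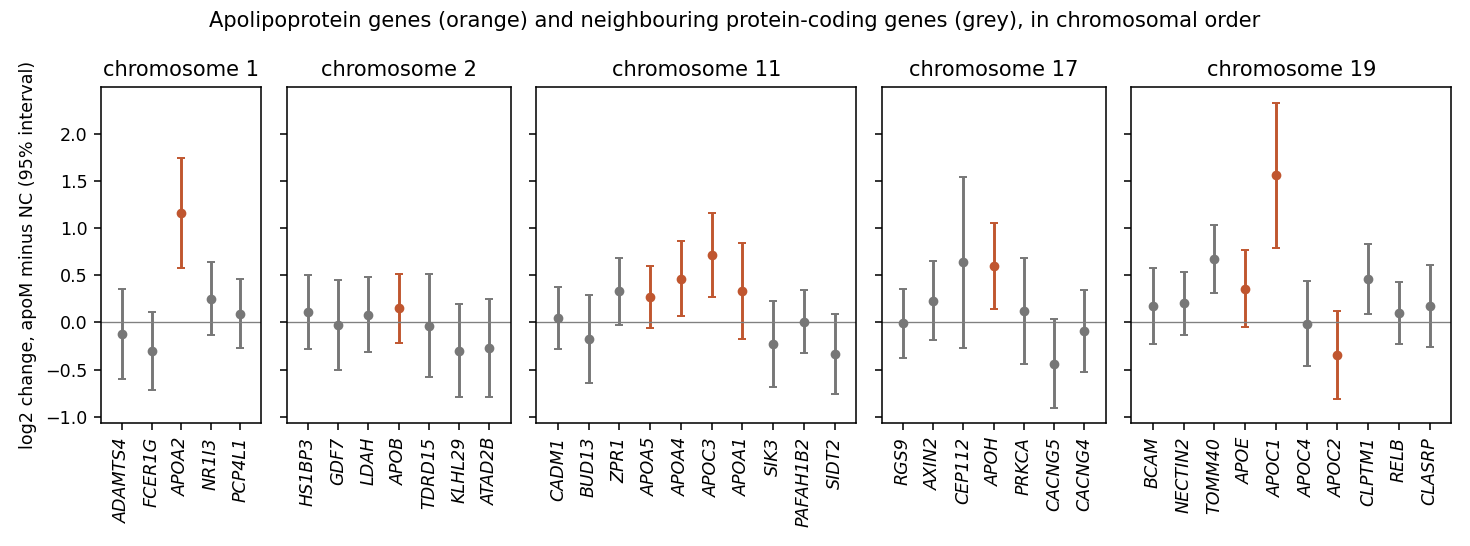
Log2 change with its 95% interval for the apolipoprotein genes (orange) and their nearest measured protein-coding neighbours (grey), ordered along each chromosome but not to scale. On chromosome 19, APOC1 at 1.56 stands between APOE at 0.36 and APOC4 at -0.01, and on chromosome 1, APOA2 at 1.16 stands between neighbours from -0.30 to 0.25.

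Sequence before the transcription start is shown for the genes with the largest changes in the promoter table, APOC1, APOA2 and APOH, and for APOC2, a cluster neighbour of APOC1 with a change in the other direction. Each is the 250 bases before the RefSeq start on the strand of the gene, 5′ to 3′, with capitals for any of 5 motifs searched on both strands. These were TATAAA, the nuclear receptor motif AGGTCA, the HNF4 motif CAAAGTCCA, the HNF1 motif GTTAAT and the GATA motif AGATAA.
APOC1 (GRCh38.p14, chr19:44914422-44914671, plus strand): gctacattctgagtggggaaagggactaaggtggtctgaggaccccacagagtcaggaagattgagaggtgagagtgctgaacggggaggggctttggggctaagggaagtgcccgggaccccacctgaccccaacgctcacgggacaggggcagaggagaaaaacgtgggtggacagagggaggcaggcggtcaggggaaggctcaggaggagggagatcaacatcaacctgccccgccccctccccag
APOA2 (GRCh38.p14, chr1:161223629-161223878, minus strand): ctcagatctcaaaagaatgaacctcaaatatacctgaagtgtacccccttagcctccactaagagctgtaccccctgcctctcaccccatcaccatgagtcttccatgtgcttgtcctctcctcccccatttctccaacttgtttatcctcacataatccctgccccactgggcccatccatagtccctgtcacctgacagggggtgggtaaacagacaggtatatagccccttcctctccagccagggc
APOH (GRCh38.p14, chr17:66229416-66229665, minus strand): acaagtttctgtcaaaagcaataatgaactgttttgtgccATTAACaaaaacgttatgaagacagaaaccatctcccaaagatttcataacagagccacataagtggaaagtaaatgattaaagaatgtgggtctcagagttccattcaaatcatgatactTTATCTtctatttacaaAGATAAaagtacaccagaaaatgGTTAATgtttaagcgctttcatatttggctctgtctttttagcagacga
APOC2 (GRCh38.p14, chr19:44945801-44946050, plus strand): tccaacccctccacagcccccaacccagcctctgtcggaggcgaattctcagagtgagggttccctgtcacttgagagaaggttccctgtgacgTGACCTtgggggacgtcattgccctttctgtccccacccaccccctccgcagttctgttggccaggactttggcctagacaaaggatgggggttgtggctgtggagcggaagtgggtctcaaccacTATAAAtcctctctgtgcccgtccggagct

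Neither APOC1 nor APOA2 held any of these motifs in this window. Each motif is in 12.1% of promoters or fewer, so their absence says little about these genes. APOH held GTTAAT on both strands, beginning 49 and 210 bases before the start, and AGATAA on both strands at 72 and 89 bases. APOC2 held TATAAA at 30 bases and AGGTCA on the opposite strand at 156 bases. Among 35116 RefSeq promoters of the same length, 10.7% held TATAAA, 12.1% AGGTCA, 6.23% GTTAAT, 9.17% AGATAA and 0.325% CAAAGTCCA. The table held 10 starts for 7 of the 10 genes. Of these starts 3 held AGGTCA, 2 GTTAAT, 1 TATAAA, 1 AGATAA and 0 CAAAGTCCA. APOA1, APOB and APOC3 were not among the 7. A match describes letters and shows neither binding nor regulation.

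Most of the 10 apolipoprotein genes are short, and across protein-coding genes the change was weakly related to gene span. Across 17579 protein-coding genes, the change correlated with span at a Spearman rho of -0.222, and at -0.353 across the 10841 above the median level; these are correlations across genes measured on the same arrays. Of the 10 apolipoprotein genes, 7 span under 5 kb, as did 2463 protein-coding genes with a median change of 0.14, or 0.29 for the 1048 above the median level. APOC1 spans 5.02 kb and APOA2 1.34 kb. The longest, APOB, spans 42.6 kb and had a change of 0.15, while APOC2, at 3.52 kb, was lower with apoM, and over the 10 genes rho was -0.139. With the span trend removed from protein-coding genes, the median of the 10 was 0.24, and APOC1 kept a change of 1.39 (limma adjusted p = 0.0467), APOA2 of 0.999 (limma adjusted p = 0.0504) and APOC3 of 0.55 (limma adjusted p = 0.121). In that fit 1.37% of genes passed.

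**Figure D4:**
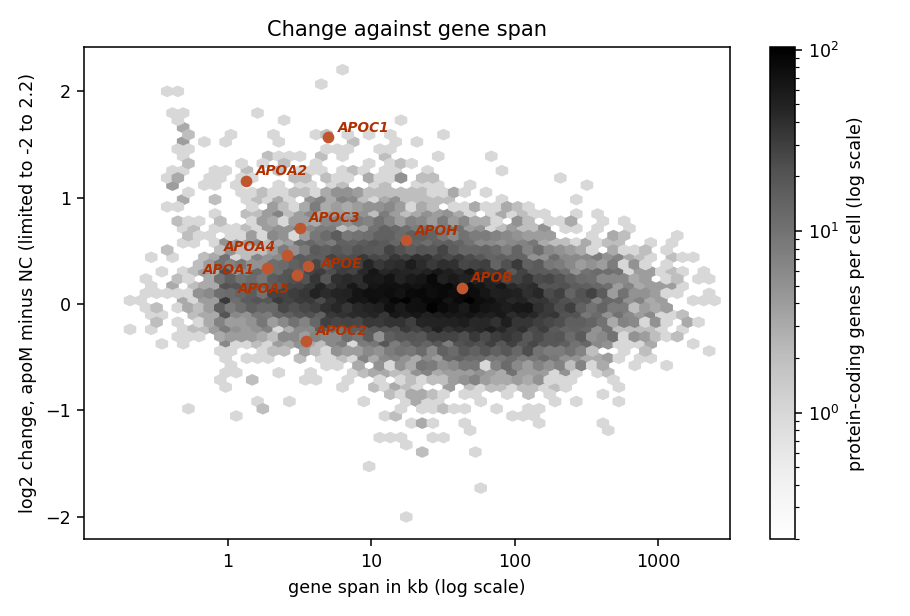
Log2 change against gene span in kb (log axis, introns included) for protein-coding genes, as counts per hexagon in grey, with the 10 apolipoprotein genes in orange. APOC1 and APOA2 lie near the upper edge for genes of their span, and APOC2 lies below 0.

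Other genes of the lipoprotein pathway were read from lists, and none of their members passed in the fit of all 6 arrays over all genes tested. Of 13 other apolipoprotein genes measured, 9 were higher on average, with a median change of 0.18. This count and those of the lists below stand beside 62.9% of all genes higher on average, and were not tested against that share. SAA1, an acute-phase protein of HDL, had a change of 0.68 (limma adjusted p = 0.0955), and APOO, a mitochondrial membrane protein, of 0.81 (limma adjusted p = 0.139). APOL1, a trypanosome-killing protein of HDL, and APOD, a lipocalin, had changes of -0.25 and 0.24. Without NC replicate 3 both APOO (1.17, limma adjusted p = 0.0080) and SAA1 (0.82, limma adjusted p = 0.0437) passed, in the fit where 7.01% of all genes did. The same share stands behind SAR1A, SERPINA1 and KRT18 below. All of these genes had larger changes in that fit than on all 6 arrays, so it is no independent test of them either. None of them passed with any other single array left out, and APOO and SAA1 passed under no other alternative of the closing section. The APOL1 feature was at the 35.6 percentile of genes tested.

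Of 24 genes of chylomicron assembly and secretion, 18 were higher on average, with a median of 0.15. SAR1A, a GTPase of the COPII coat that carries cargo out of the endoplasmic reticulum, had the smallest p, at a change of 0.69 (SE 0.17, limma adjusted p = 0.0600), and passed without NC replicate 3 (limma adjusted p = 0.0203). CIDEB, a lipid droplet protein needed for lipoprotein lipidation in mouse liver, had 0.56 (limma adjusted p = 0.190), PRAP1 0.41 and P4HB, the subunit that partners MTTP, 0.33. MTTP, which loads lipid onto apoB, had 0.09 (limma adjusted p = 0.881), beside the 0.15 of APOB.

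Of 15 genes of lipolysis and HDL remodelling, 8 were higher on average and the median was 0.05. ANGPTL8, an inhibitor of lipoprotein lipase, read lower with apoM, at 4.83 ± 0.05 against 5.44 ± 0.20 (SD, n = 3; limma adjusted p = 0.0749). PON3, a lactonase on HDL, had a change of 0.52 (limma adjusted p = 0.107), ANGPTL4, another inhibitor of the lipase, of 0.32 and GPIHBP1, which anchors the lipase on capillary endothelium, of 0.30. The features of ANGPTL8, ANGPTL4 and GPIHBP1 were at the 47.2, 2.5 and 3.1 percentiles of genes tested.

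Of 24 transcription factors known to act on apolipoprotein genes, 13 were higher on average and the median was 0.08. PPARA, a fatty acid receptor that acts on APOA1, APOA2 and APOC3, had a change of -0.42 (limma adjusted p = 0.183). Its partner RXRA had 0.37, CEBPA 0.51 and ONECUT1 -0.42, with limma adjusted p-values from 0.191 to 0.283.

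Secreted plasma proteins of the liver type gave 21 of 28 higher on average and a median of 0.09, below the 0.41 of the apolipoproteins. Only 16 of the 28 were above the median level of genes tested, where all 10 apolipoprotein genes were, so the lists also differ in brightness. The difference between the lists was not tested. SERPINA1, alpha-1-antitrypsin, had a change of 0.68 (SE 0.15, limma adjusted p = 0.0548; 0.0396 without NC replicate 3), SERPINA3, antichymotrypsin, of 0.65, RBP4, a carrier of retinol, of 0.53 and complement C3 of -0.49. Among cell type markers the median changes were 0.12 over 17 enterocyte genes, 0.03 over 13 hepatocyte genes, -0.03 over 8 fibroblast genes, 0.01 over 9 leukocyte genes, 0.07 over 7 endothelial genes and -0.002 over 5 erythroid genes, with none past the threshold on all 6 arrays. The epithelial keratin KRT18 passed without NC replicate 3, at 0.72 (limma adjusted p = 0.0487).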

How the data were processed

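Per the labels' protocols, biotinylated cRNA was made from Trizol-extracted total RNA for Affymetrix arrays. The deposited values are log2 signals, judged from their range, which the authors made with Affymetrix Expression Console according to the submitters' processing notes. The program version, the normalization and the build are not given in the sources read here, so no coordinates of array features are reported; promoter positions and gene spans are those of RefSeq on GRCh38.p14. The values were not normalized again, and no feature was called absent.

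Features with 1 gene symbol in the platform annotation (36176 of 135750) were named through the GRCh38.p14 RefSeq gene table, 25516 by gene ID and 9899 by symbol; 761 were not matched. The brightest feature stood for each gene. Group differences (overexpression minus NC) were tested two-sided with limma 3.58.1 in R 4.3.3, using lmFit and eBayes with p-values adjusted by Benjamini-Hochberg over 33616 genes and a threshold of 0.05; the procedure was checked on simulated data. The 3 arrays per group limit the precision. No 2 arrays were identical. The span trend was removed per array by lowess (span 0.3). Figures used matplotlib 3.10.9 in Python 3.11.15.

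The genes followed and all lists were chosen with earlier results of these data known. List members without a single-symbol feature here were not analysed here. Named were the 10 genes, APOM and, per list and among neighbours, up to 4 genes with the smallest p. Cell type marker lists were read as medians and a few levels. Alternatives are given in the closing section.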

Additional observations from a re-analysis of the deposited data

How the results depend on the processing

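Under all 16 alternatives 9 of the 10 apolipoprotein genes were higher with apoM and APOC2 was lower. In 10 of them none passed a limma adjusted p of 0.05. With quantile normalization 1 passed, APOC1 (limma adjusted p = 0.0445), beside 2.61% of all genes, and it passed without the span trend. Over genes above the median level and with eBayes using trend and robust settings 2 passed, APOC1 and APOA2, beside 10.3% and 3.72% of genes. With array weights 3 passed, APOC3 included, beside 4.99%. Leaving out 1 array gave 0 to 3 genes past the threshold, and 3 only without NC replicate 3. With 1 array left out, the change of APOC1 ran from 1.34 to 1.95 (limma adjusted p from 0.0067 to 0.174), that of APOA2 from 0.88 to 1.44 (0.0079 to 0.169) and that of APOC3 from 0.60 to 0.92 (0.0183 to 0.271). The median change of the 10 ran from 0.24 to 0.56 over all alternatives, and 5 to 8 had groups that did not overlap; the share of all genes apart and higher was 12% where there were 5 (protein-coding genes without the span trend) and 28.5% where there were 8 (without NC replicate 3). Over all genes, 691 passed. There were 1730 above the median level, 1251 with trend and robust settings, 1679 with array weights, 195 among protein-coding genes, 241 of these without the span trend and 2 among all 135750 features. Leaving out 1 array gave from 2 to 2358 genes; such fits have fewer arrays. The causes of the other differences were not tested.

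With the replicate number as a block 50 genes and none of the 10 passed (limma adjusted p = 0.0982 for APOC1 and 0.0871 for APOA2). Deviations of same-numbered arrays correlated at -0.141, 0.0523 and -0.143, and those of differently numbered arrays at -0.084 to 0.211. With 3 arrays per group these values cannot decide whether equal numbers share a culture or batch, which the labels do not give. Signal over background was not analysed here, which limits APOA1, APOA5 and APOC2, and more so the dimmer ANGPTL8, APOL1, ANGPTL4 and GPIHBP1. TOMM40 passed with quantile normalization. Over genes above the median level, with trend and robust settings and with array weights, TOMM40, SAR1A and SERPINA1 passed, as did KRT18 in the first and second of these and SERPINA3 in the first. ANGPTL8 passed without the span trend.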
